A study of Homo sapiens with 6 samples.

Results

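The interleukin-1 family and its receptors were examined in MCF-10A cells, an immortalized breast epithelial line that is not transformed, with and without a lentivirus that carries MBD2. The members were 10 genes chosen by name, namely the ligands IL1A, IL1B, IL18, IL33 and IL36G, the antagonist IL1RN, and the receptor chains IL1R1, IL1RAP, IL1RL1 and IL1R2. Every probe set of the Affymetrix Human Genome U133 Plus 2.0 array whose annotation gives only 1 of these symbols was kept, which gave 22 of the 41091 probe sets with a single symbol. Total RNA was hybridized to 3 arrays of control cells (C1 to C3) and 3 arrays of cells with the MBD2 lentivirus (M1 to M3), all of them MCF-10A cells grown in mammary epithelial medium without the antibiotic mix of its kit. Sources differ on the controls. The methods give an empty virus and biological replicates, and the design text of the series gives cells that were not infected and technical replicates. The sample labels give only control and MBD2 transfection as the treatment. The virus was packaged in HEK293 cells, and no source says whether the infected cells were a clone. All p-values rest on the spread among the 3 arrays of a group, which may be technical.

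Interleukin-1 alpha and beta, encoded by IL1A and IL1B, are alarm cytokines of epithelia and myeloid cells. Both bind the receptor encoded by IL1R1, which recruits the accessory chain encoded by IL1RAP and signals through the adaptor MyD88 to NF-kappaB. The receptor antagonist encoded by IL1RN occupies IL1R1 without recruiting the accessory chain, and IL1R2 is a decoy receptor that binds ligand without signalling. IL18 and IL33 encode related cytokines, the latter a nuclear alarm protein that acts through IL1RL1 (also called ST2), and IL36G encodes an epithelial cytokine of keratinocytes that uses IL1RL2 together with IL1RAP. Keratinocytes and other stratified epithelia store several of these proteins, including an intracellular form of the antagonist.

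MBD2 binds methylated CG dinucleotides, so the CG content around the starts of the genes that lay apart between the groups is shown here. RefSeq promoter windows on GRCh38.p14, from 250 bases before to 50 after a start, were given for 9 of the 10 genes. For each of 4 genes of the ligand cluster on chromosome 2 the window with the most CG dinucleotides was printed (the first of a tied pair for IL1A), 5′ to 3′ on the strand of the gene, with every CG in capitals. They are IL1RN at chr2:113127348-113127647 on the plus strand, IL36G at chr2:112977756-112978055 on the plus strand, IL1A at chr2:112784444-112784743 on the minus strand and IL1B at chr2:112836730-112837029 on the minus strand. The arrays measured neither methylation nor MBD2 binding, and they do not show which start was used.
IL1RN: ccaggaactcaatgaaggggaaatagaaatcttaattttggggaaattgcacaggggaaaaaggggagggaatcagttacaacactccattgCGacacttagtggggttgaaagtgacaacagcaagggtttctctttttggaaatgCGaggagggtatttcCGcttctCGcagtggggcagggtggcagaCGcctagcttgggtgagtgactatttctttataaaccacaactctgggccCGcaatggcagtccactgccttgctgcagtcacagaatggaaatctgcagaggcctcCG
IL36G: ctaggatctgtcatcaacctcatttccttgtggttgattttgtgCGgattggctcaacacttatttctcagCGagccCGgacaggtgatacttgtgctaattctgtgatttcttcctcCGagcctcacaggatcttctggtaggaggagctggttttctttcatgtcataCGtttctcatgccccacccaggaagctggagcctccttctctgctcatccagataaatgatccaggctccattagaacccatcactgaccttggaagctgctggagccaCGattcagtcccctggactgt
IL1A: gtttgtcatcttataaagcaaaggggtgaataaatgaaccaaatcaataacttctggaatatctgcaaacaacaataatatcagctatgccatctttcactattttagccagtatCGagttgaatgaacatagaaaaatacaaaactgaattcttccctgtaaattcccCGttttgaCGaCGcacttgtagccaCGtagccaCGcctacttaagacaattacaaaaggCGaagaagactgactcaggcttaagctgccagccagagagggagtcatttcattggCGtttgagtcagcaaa
IL1B: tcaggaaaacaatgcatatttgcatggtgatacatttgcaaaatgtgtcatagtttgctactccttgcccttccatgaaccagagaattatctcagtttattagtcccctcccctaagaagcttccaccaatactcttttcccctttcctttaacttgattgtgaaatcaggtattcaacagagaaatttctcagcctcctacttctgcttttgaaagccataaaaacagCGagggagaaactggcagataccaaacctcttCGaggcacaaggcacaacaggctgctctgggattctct
The motif CG was present 7 times in the IL1RN window, 6 times in that of IL36G, 8 times in that of IL1A and 2 times in that of IL1B. The median over 35116 RefSeq windows was 14, and 96.0% held at least 1. The other windows of IL1RN held 2 and 5. Among the receptor genes the count reached 40 in a window of IL1R1 and 36 in that of IL1RAP, and it was 1 in both windows of IL1RL1. The motif TGANTCA, with any base at N, takes in the letters bound by AP-1 factors, which have C or G there, and is wider than them. It reads as itself on the opposite strand and was found 2 times in each of the overlapping IL1A windows, and 7.71% of all windows held it. It was also found in 1 window each of IL1RN and IL1RL1, and the IL1RL1 match had T at N. The kappaB consensus, searched on both strands, matched only in a window of IL1R2 among the members and in 11.3% of all windows. These are matches of letters in 300 bases and nothing more.

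Expression was given as log2 values after RMA, in which a difference of 1 is a 2-fold change, and levels of different probe sets are not comparable with each other. MBD2 itself lay at 8.92, 9.03 and 9.68 on C1 to C3 and at 12.17, 11.72 and 12.50 on M1 to M3 (log2 difference 2.92 with standard error 0.28, limma adjusted p = 0.0157), and without C1, C2 or M3 its adjusted p was 0.0957, 0.107 and 0.0828. The other 3 probe sets of MBD2 did not pass. C1 and C2 differed more than 2-fold in only 26 of the 41091 probe sets and M2 and M3 in 148, but C1 and C3 in 3037 and M1 and M2 in 5552. M1 differed from C1 and C2 in 2940 and 2623, fewer than from M2 or M3. The added hybridization controls averaged 9.94 and 10.01 on M2 and M3 and 10.96 to 11.33 on the other 4 arrays. Array controls for a transcript that was not added lay between 2.93 and 3.67. Of 10 leukocyte markers, 8 were measured and PTPRC, their defining gene, lay between 3.50 and 4.03. Their summed level, in log2 units, was 10.20 to 10.95 on control arrays and 8.45 to 9.11 on MBD2 arrays. Among the 8, CD14, a lipopolysaccharide co-receptor, was lower on every MBD2 array without passing (log2 difference -3.07 with standard error 0.51, limma adjusted p = 0.0509). CD14 had the highest mean of the 8, at 8.71, so it weighed most in that sum. CSF1R of the same list was higher on every MBD2 array without passing (log2 fold change 0.48, limma adjusted p = 0.281). The summed level of 5 endothelial markers was 7.35 to 7.59 on control and 7.40 to 7.50 on MBD2 arrays, and that of 5 markers of HEK293 cells was 8.30 to 8.56 and 8.36 to 8.82, among which only PAX8, a transcription factor gene, had a mean of at least 5. Of 7 measured markers of basal mammary epithelium 5 were lower and 0 higher at an unadjusted p under 0.05, with a median log2 fold change of -1.14. Over all genes, by brightest probe set, 9.79% were lower and 8.83% higher at that p in limma, and the median was -0.02. KRT5 and KRT14, its keratins, lay between 11.49 and 14.37 on all arrays and were lower on every MBD2 array than on every control array without passing (log2 fold changes of -1.26 and -0.56, limma adjusted p = 0.167 and 0.234). ITGB4 of the same list went the other way, higher on every MBD2 array without passing (log2 fold change 0.81, limma adjusted p = 0.446). LAMB3 was at 0.61 with groups that overlapped (limma adjusted p = 0.620). CDH1 and CDH3 were lower without passing (log2 fold changes of -1.61 and -1.14, limma adjusted p = 0.158 and 0.263). In this list only EPCAM, an epithelial adhesion molecule, passed the test, and it was lower (log2 difference -3.12 with standard error 0.12, limma adjusted p = 0.00148). The summed level of the 7 was 15.44 to 16.05 on control and 14.91 to 15.25 on MBD2 arrays. The part of these differences in the results for the interleukin-1 genes was not tested.

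Only the antagonist gene IL1RN fell in the MBD2 arrays under the test across all probe sets. Of the 22 probe sets, 2 were lower, both of IL1RN, and 0 were higher by the rule of an adjusted p below 0.05 together with at least 1.5-fold. Over all 41091 probe sets 0.978% were lower and 0.898% higher by the same rule. At an unadjusted p under 0.05, 5 member probe sets were lower and 3 higher in limma, against 8.05% and 8.49% of all probe sets. The median log2 fold change of the 22 was -0.00070, against -0.0047 for all probe sets. Groups did not overlap for 8 of the 22, with MBD2 lower in 5 and higher in 3, and this held for 12.3% and 10.4% of all probe sets. Among those 5 was a probe set of IL1RL1 with a log2 fold change of only -0.16. A difference of at least 1.5-fold, whatever its p, was found for 5 lower and 3 higher member probe sets, against 6.57% and 9.87% of all. In these bulk samples, fewer cells with a transcript and less of it per cell cannot be told apart.

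**Figure D1:**
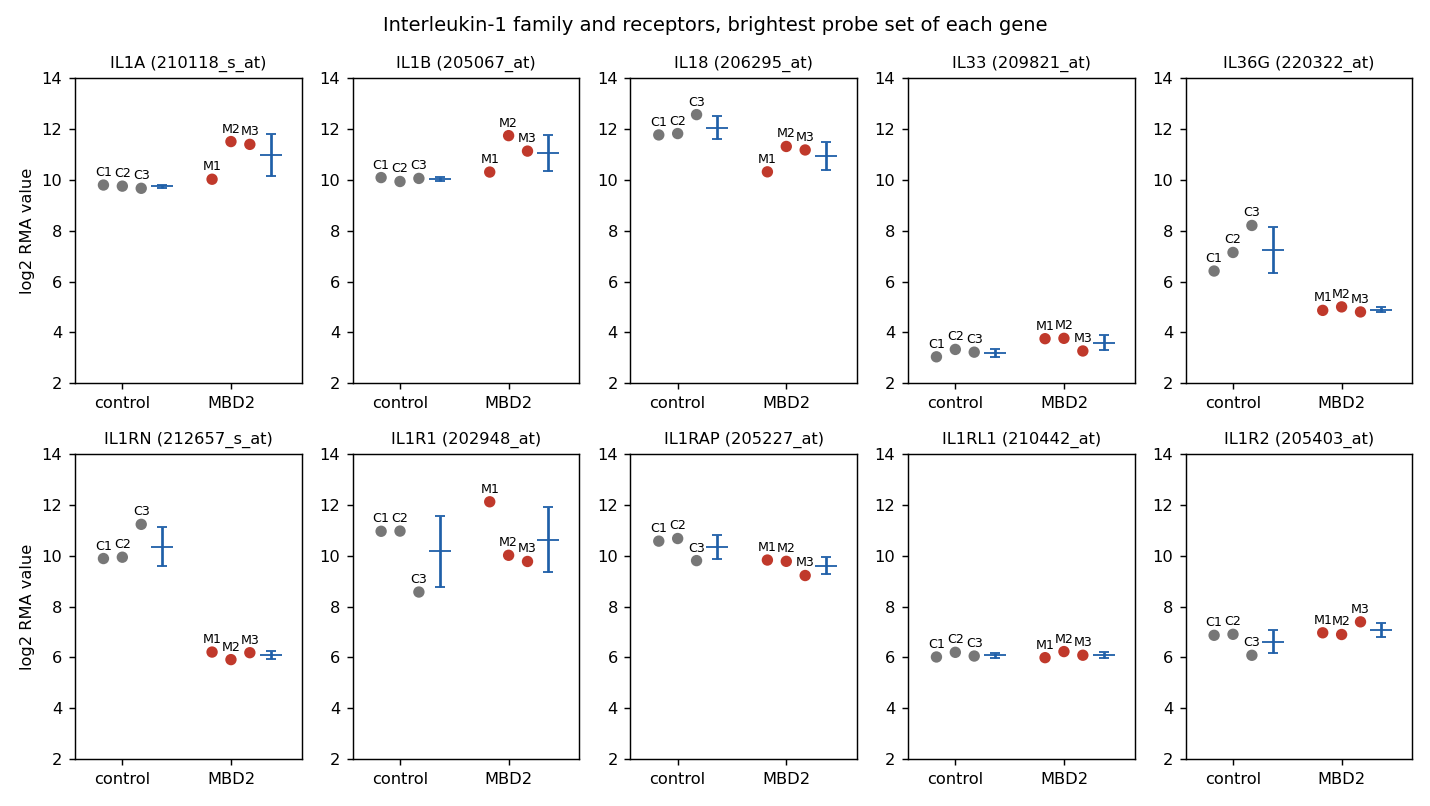
Log2 RMA values of the brightest probe set of each of the 10 genes in grey for the 3 control arrays and in red for the 3 MBD2 arrays, with the mean and SD of each group in blue. IL1RN lay at 9.89 to 11.24 on control arrays and 5.91 to 6.21 on MBD2 arrays, and for IL1R1 the arrays of each group lay far apart.

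IL1RN, the antagonist, had the largest difference of the 10 genes. On its brightest probe set, 212657_s_at, its value was 9.89, 9.94 and 11.24 on C1 to C3 and 6.21, 5.91 and 6.18 on M1 to M3. Every MBD2 array lay more than 3 log2 units below every control array, and the MBD2 arrays differed little among themselves whereas C3 stood above the other controls. The means were 10.36 ± 0.76 and 6.10 ± 0.17 (SD, n = 3). IL1RN was thus 19.1-fold lower (log2 difference -4.26 with standard error 0.38, 95% interval -5.19 to -3.33, limma adjusted p = 0.0138). A second probe set, 212659_s_at, gave 7.11, 6.79 and 7.15 on C1 to C3 and 5.99, 6.02 and 6.08 on M1 to M3. Its groups did not overlap either, and the fold change was smaller, at 1.98-fold (log2 difference -0.99 with standard error 0.13, limma adjusted p = 0.0312). The remaining 3 probe sets of IL1RN, with means of 3.13 to 4.99 in either group, had log2 fold changes of -0.15 to -0.01 and did not pass. With the mean of all 5 probe sets the log2 fold change of IL1RN was -1.10 (limma adjusted p = 0.0215). On 212657_s_at the decrease was of like size whichever array was left out (log2 fold change -4.49 to -3.82), but its adjusted p was 0.0795, 0.0804, 0.0668 and 0.0828 without C1, C2, M2 or M3 and stayed under 0.05 without C3 or M1. On 212659_s_at only the fit without M1 kept it under 0.05, with 0.0508 without C3 and up to 0.152 without the others. On M1, whose hybridization controls were close to those of the control arrays, 212657_s_at lay 4.15 log2 units below the control mean, against 4.45 and 4.17 on M2 and M3.

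The genes whose pattern over the 6 arrays was most like that of IL1RN were GRHL1 and OVOL1, both epithelial transcription factor genes, and UQCR11, which encodes a subunit of the respiratory chain. Among 4427 genes with an SD of at least 0.5 their correlations with 212657_s_at were 0.999 for GRHL1 and 0.998 for UQCR11 and OVOL1. The points share the same 6 arrays and the split between the groups, so these values are a description. The log2 fold changes were -4.80 for GRHL1, -2.65 for OVOL1 and -1.25 for UQCR11.

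Among the ligands, IL36G and IL18 were lower on every MBD2 array than on every control array without passing the test. IL36G, the keratinocyte cytokine, lay at 6.42, 7.15 and 8.21 on C1 to C3 and at 4.87, 5.01 and 4.81 on M1 to M3. The control arrays were widely spread, with C1 lowest and C3 highest, whereas the MBD2 arrays were close together. The mean was 7.26 ± 0.90 in control and 4.89 ± 0.10 in MBD2 arrays (SD, n = 3), so IL36G was 5.15-fold lower (log2 difference -2.37 with standard error 0.44, 95% interval -3.44 to -1.29, limma adjusted p = 0.0651). IL36G passed the test without C3 (log2 fold change -1.89, limma adjusted p = 0.0381) and without M1 (-2.35, adjusted p = 0.0383). It also passed without both (-1.88, adjusted p = 0.000288, on near-identical arrays) and with only probe sets of a mean of at least 5 (adjusted p = 0.0476). With centring on housekeeping genes, which called 41.9% of all probe sets lower, IL36G passed too (-2.95, adjusted p = 0.0138). It passed in no other setting. Its limma adjusted p was 0.0986, 0.228, 0.199 and 0.266 without C1, C2, M2 or M3. With C1 and C2, and M2 and M3, averaged it was 0.541. IL18, whose product is stored as an inactive precursor and matured by caspase-1, lay at 11.78, 11.83 and 12.58 on C1 to C3 and at 10.32, 11.32 and 11.18 on M1 to M3. M1 was the lowest array and C3 the highest, and the gap between the groups, from C1 to M2, was under 0.5 log2 units. The log2 fold change of IL18 was -1.12 (standard error 0.34, 95% interval -1.96 to -0.28, limma adjusted p = 0.195). It passed with every array centred on housekeeping genes, at -1.70 (adjusted p = 0.021), a setting that moved the median of all probe sets to -0.59.

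IL1A and IL1B lay on the other side, above the controls, and most of their difference was on 2 of the 3 MBD2 arrays. On probe set 210118_s_at IL1A lay at 9.80, 9.76 and 9.67 on C1 to C3 and at 10.03, 11.51 and 11.40 on M1 to M3. M2 and M3 were 1.77 and 1.66 log2 units above the control mean and M1 was 0.29 above it. The log2 fold change of IL1A was 1.24 (standard error 0.40, 95% interval 0.25 to 2.22, limma adjusted p = 0.214). IL1B had the same order of MBD2 arrays, with 10.10, 9.94 and 10.06 on C1 to C3 and 10.31, 11.75 and 11.14 on M1 to M3 on probe set 205067_at. Its log2 fold change was 1.03 (standard error 0.35, 95% interval 0.17 to 1.90, limma adjusted p = 0.232), and its second probe set, 39402_at, gave 0.83 (adjusted p = 0.254) with groups that did not overlap. Without M1 the log2 fold change was 1.71 for IL1A (adjusted p = 0.00295), and 1.41 and 1.16 for the probe sets of IL1B (adjusted p = 0.0122 and 0.012), in a fit that called 8.8% of all probe sets higher. With M1 alone against the controls it was 0.29 for IL1A and 0.28 for IL1B on 205067_at. M2 and M3 are the arrays with low hybridization controls and few differences between them, and the part of either in these values was not tested. The dimmer probe set of IL1A, 208200_at, had its highest value on M1 (5.29, against 3.82 to 4.35 on the other arrays) and a log2 fold change of 0.41 (limma adjusted p = 0.621). Of the values of 208200_at, 2 were within 0.5 log2 units of the highest control for a transcript that was not added. With the mean of its probe sets, IL1A passed the test (log2 fold change 0.82 with standard error 0.12, limma adjusted p = 0.032). That mean joins probe sets that differed in opposite directions on M1. M1 minus the mean of M2 and M3 was -1.43 on 210118_s_at and 1.13 on 208200_at.

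IL33, the ligand of IL1RL1, was near the level of array controls for a transcript that was not added. It lay at 3.04, 3.33 and 3.22 on C1 to C3 and at 3.75, 3.77 and 3.27 on M1 to M3, and all 6 values were within 0.5 log2 units of the highest such control or below it. Its log2 fold change was 0.40 (95% interval -0.03 to 0.82, limma adjusted p = 0.326), and background limits what could be seen.

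**Figure D2:**
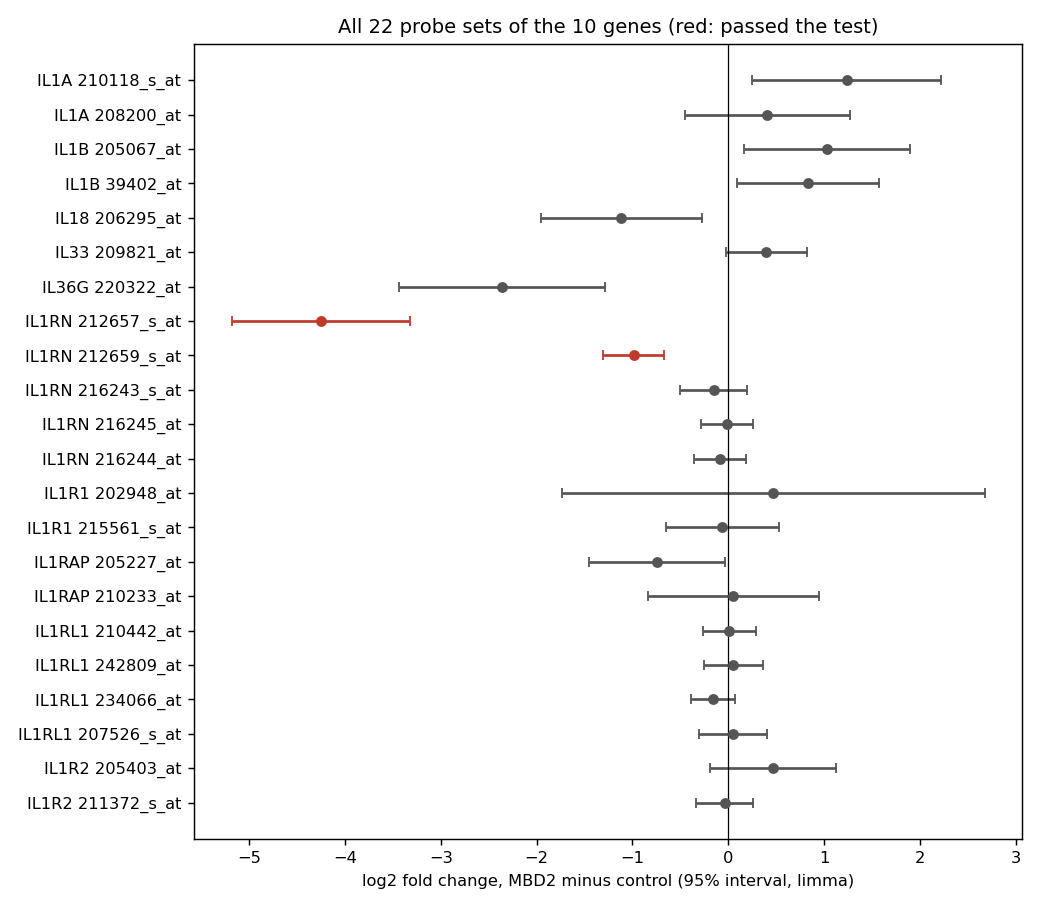
Log2 fold change (MBD2 minus control) of all 22 probe sets with the 95% interval from limma, with the probe sets that passed the test in red. Only 2 probe sets of IL1RN passed, IL36G and IL18 lay below 0, IL1A and IL1B above it, and the interval of IL1R1 on 202948_at ran from -1.74 to 2.68.

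None of the receptor genes passed the test, and the signalling receptor IL1R1 varied more within the groups than between them. On probe set 202948_at IL1R1 lay at 10.96, 10.97 and 8.57 on C1 to C3 and at 12.12, 10.02 and 9.77 on M1 to M3. C3 was the lowest array and M1 the highest, and the groups overlapped. The log2 fold change was 0.47 (standard error 0.90, 95% interval -1.74 to 2.68, limma adjusted p = 0.843), which leaves room for a change of several fold in either direction. Leaving out C3 or M1 turned it to -0.33 or -0.27, and without both it was -1.07 (limma adjusted p = 0.000346). That fit rests on 2 near-identical arrays a group, in which 9.96% of all probe sets were called lower and 15.5% higher. With C1 and C2, and M2 and M3, averaged instead, IL1R1 was at 1.24 (limma adjusted p = 0.928). C3 and M1 are the arrays that stood apart from the others of their group, and the part of that in the values of IL1R1 was not tested. Its dimmer probe set, 215561_s_at, had a log2 fold change of -0.06, again with the highest value on M1.

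IL1RAP, the chain shared by the receptors for interleukin-1, interleukin-33 and interleukin-36, lay at 10.57, 10.68 and 9.81 on C1 to C3 and at 9.83, 9.78 and 9.22 on M1 to M3 on probe set 205227_at. C3 lay just below M1, so the groups overlapped by a narrow margin. The log2 fold change of IL1RAP was -0.74 (standard error 0.29, 95% interval -1.45 to -0.03, limma adjusted p = 0.282), and its other probe set, 210233_at, gave 0.05. It passed with both C3 and M1 left out (log2 fold change -1.13, adjusted p = 0.00152), against -0.55 (adjusted p = 0.879) with the near-identical arrays averaged, and with centring on housekeeping genes (-1.33, adjusted p = 0.0263).

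The decoy receptor gene IL1R2 lay at 6.87, 6.91 and 6.08 on C1 to C3 and at 6.97, 6.90 and 7.40 on M1 to M3 on probe set 205403_at. The groups overlapped, with C3 the lowest array and M3 the highest. The log2 fold change of IL1R2 was 0.47 (95% interval -0.19 to 1.13, limma adjusted p = 0.449), and its dimmer probe set gave -0.04. IL1RL1, the interleukin-33 receptor gene, had 4 probe sets with log2 fold changes of -0.16 to 0.05. On the brightest, 210442_at, IL1RL1 lay between 5.99 and 6.23 on all 6 arrays, and the 95% interval of its difference was -0.26 to 0.29.

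**Figure D3:**
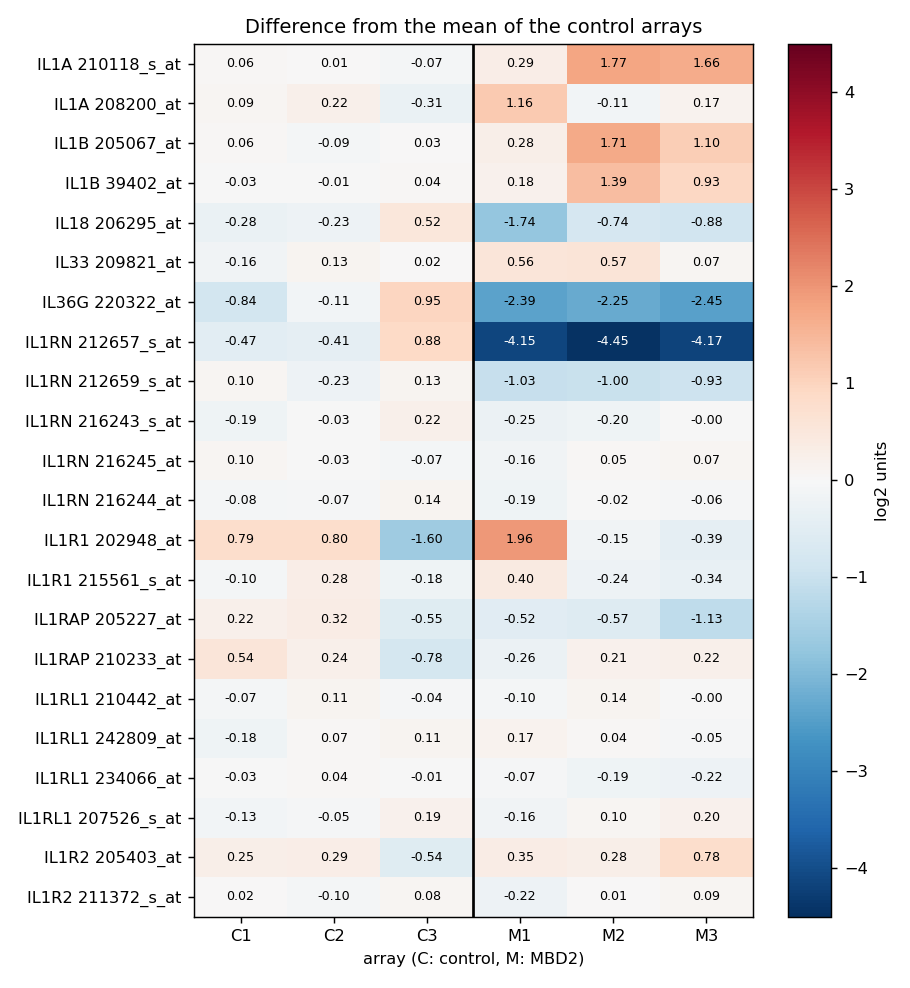
Difference of each array from the mean of the 3 control arrays, in log2 units, for all 22 probe sets, with control arrays left and MBD2 arrays right of the line. IL1RN and IL36G were low on all 3 MBD2 arrays, IL1A and IL1B were high mainly on M2 and M3, and IL1R1 was low on C3 and high on M1.

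The ligand genes IL1A, IL1B and IL36G and the antagonist gene lie in a run on chromosome 2, and genes there differed in direction. The ligand genes IL18 and IL33 are not in this run, and IL33 lies on chromosome 9. In the order of the RefSeq table (GRCh38.p14) the protein-coding genes run IL1A, IL1B, IL37, IL36G, IL36A, IL36B, IL36RN, IL1F10 and IL1RN. IL1A and IL1B at one end were above the controls and IL1RN at the other end fell, with IL36G, below the controls, between them. The brightest probe sets of IL37, IL36A, IL36B, IL36RN and IL1F10 had means of 3.81 to 5.77 over the 6 arrays and log2 fold changes of -0.24 to 0.14. The flanking genes CKAP2L, a mitotic spindle gene next to IL1A, and PSD4, a guanine nucleotide exchange factor gene next to IL1RN, had log2 fold changes of 0.90 and -0.41. A second run of genes on the same chromosome holds IL1R2, IL1R1, IL1RL2, IL1RL1, IL18R1 and IL18RAP, whose log2 fold changes lay between 0.01 and 0.47.

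**Figure D4:**
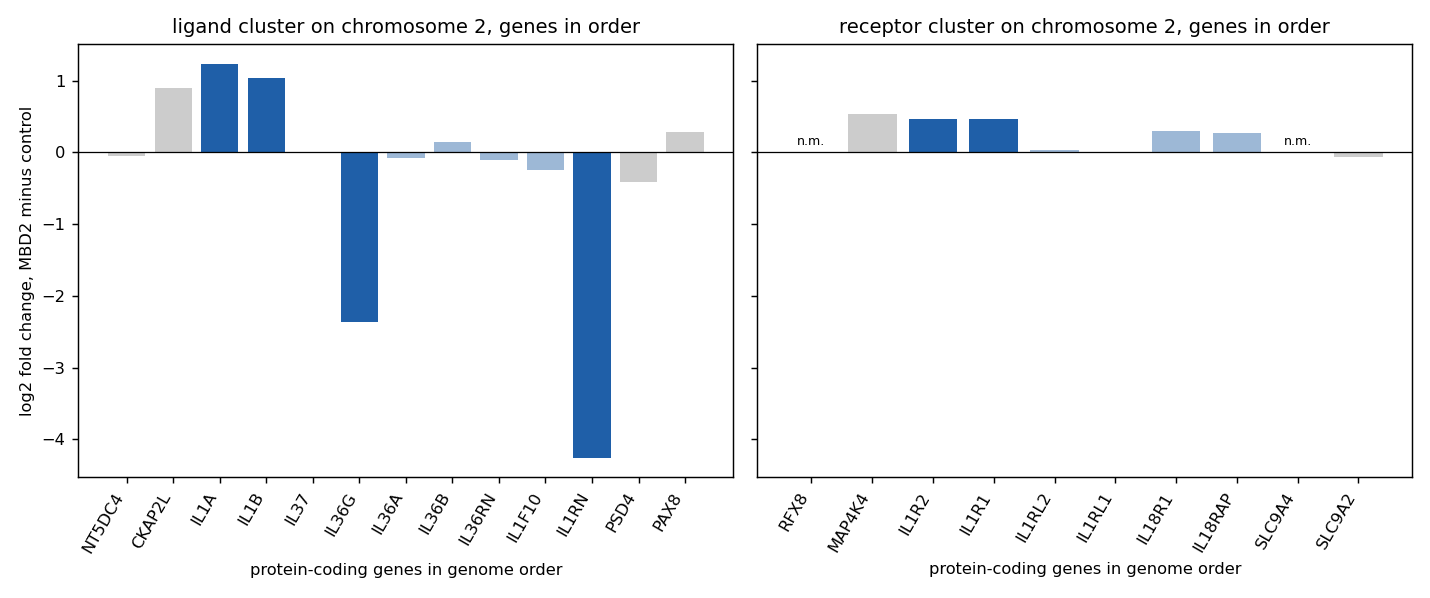
Log2 fold change (MBD2 minus control) of the brightest probe set of each protein-coding gene in genome order through the ligand cluster (left) and the receptor cluster (right) of chromosome 2, with members in dark blue, other family genes in light blue, flanking genes in grey and n.m. for genes without a single-symbol probe set. IL36G (-2.37) and IL1RN (-4.26) stand below 0 and IL1A (1.24) and IL1B (1.03) above it, and the bars of IL37 and IL1RL1 are too small to see.

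Over the brightest probe sets of the 10 members, the correlation across the 6 arrays was 0.97 for IL1A with IL1B and 0.97 for IL1RN with IL36G. It was -0.80 for IL1A with IL1RN and -0.20 for IL1A with IL1R1. The 6 points of each pair share the same arrays and 2 groups, and the values are given as a description.

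Other genes of the pathway were read from lists, each gene by its brightest probe set, of which 1.28% over all 19775 genes were lower and 1.04% higher by the same rule. Of 12 further ligands, inhibitors and receptors of the family 0 were lower and 0 were higher in limma, with 0 lower and 1 higher at an unadjusted p under 0.05 and a median log2 fold change of -0.09. Over all genes 9.79% were lower and 8.83% higher at that unadjusted p. Only 4 of them had a mean of at least 5. Of 15 genes that mature or release these cytokines 0 were lower and 1 was higher, with 2 lower and 3 higher at an unadjusted p under 0.05 and a median of -0.04. CAPN2, which encodes a subunit of the calpain that cleaves cell proteins and can process the interleukin-1 alpha precursor, lay at 11.89, 11.83 and 11.89 on C1 to C3 and 13.22, 13.19 and 13.34 on M1 to M3. All 3 MBD2 arrays, M1 included, lay more than 1 log2 unit above every control array (log2 difference 1.38 with standard error 0.09, limma adjusted p = 0.00751). CASP1, the protease that matures interleukin-1 beta and interleukin-18, was lower on every MBD2 array without passing (log2 difference -1.38 with standard error 0.45, adjusted p = 0.214), and NLRP3, an inflammasome sensor gene, was higher on every MBD2 array without passing (1.39, standard error 0.44, adjusted p = 0.203). CAPN1, the other calpain gene of the list, was lower on every MBD2 array without passing (-0.72, standard error 0.23, adjusted p = 0.209). CASP1, NLRP3 and CAPN1 were chosen after their values were seen.

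Of 25 measured genes of receptor signalling and NF-kappaB 0 were lower and 0 were higher in limma, with 5 lower and 3 higher at an unadjusted p under 0.05 and a median of -0.06. At that unadjusted p 9.79% of all genes were lower and 8.83% higher. The adaptor gene MYD88 had a log2 fold change of -0.42 (adjusted p = 0.580), and NFKBIA, which encodes an inhibitor of NF-kappaB that NF-kappaB itself induces, had -0.90 (adjusted p = 0.221), both from limma and both chosen after their values were seen. Besides NFKBIA, the lower genes at that unadjusted p were PELI1, PELI2, NFKB1 and NFKBIB. Their log2 fold changes were -1.32, -0.36, -0.35 and -0.28 (limma adjusted p = 0.150, 0.159, 0.262 and 0.290). The 3 higher genes were MAP3K7, IKBKG and TAB3, with log2 fold changes of 0.87, 0.95 and 0.49 (limma adjusted p = 0.115, 0.136 and 0.294).

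Of 21 measured genes that interleukin-1 is known to induce in epithelial cells, 2 were lower and 1 was higher, with 3 lower and 6 higher at an unadjusted p under 0.05 and a median of 0.26. Over all genes 9.79% were lower and 8.83% higher at that unadjusted p, and the median was -0.02. CXCL2, a neutrophil chemokine gene, lay at 8.07, 7.96 and 7.83 on C1 to C3 and at 9.89, 9.30 and 9.63 on M1 to M3. M1 was the highest array, unlike for IL1A and IL1B (log2 difference 1.66 with standard error 0.17, limma adjusted p = 0.0185). S100A8 and S100A9 encode the chains of calprotectin, which are also markers of keratinocyte activation. S100A8 lay at 13.89, 13.85 and 14.43 on C1 to C3 and at 10.61, 9.82 and 8.89 on M1 to M3 (log2 difference -4.28 with standard error 0.44, limma adjusted p = 0.0185). S100A9 lay at 10.90, 11.13 and 13.23 on C1 to C3 and at 7.02, 7.50 and 6.75 on M1 to M3 (log2 difference -4.66 with standard error 0.64, limma adjusted p = 0.0346). The genes named next were chosen after their values were seen. The chemokine genes CXCL1 and CXCL8, the cytokine genes IL6 and CSF3 and the adhesion gene ICAM1 were higher on every MBD2 array without passing, with log2 fold changes of 1.40, 1.22, 0.97, 1.89 and 0.52. S100A7, another S100 gene of activated keratinocytes, was lower on every MBD2 array without passing (log2 fold change -3.03, standard error 1.07, limma adjusted p = 0.244). Averaged over its probe sets, CAPN2 was at 0.86 (limma adjusted p = 0.183) and CXCL2 at 0.58, under the fold threshold. Without C1, C2 or M3 none of CAPN2, CXCL2, S100A8 and S100A9 passed, and without M2 CAPN2 and CXCL2 did.

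**Figure D5:**
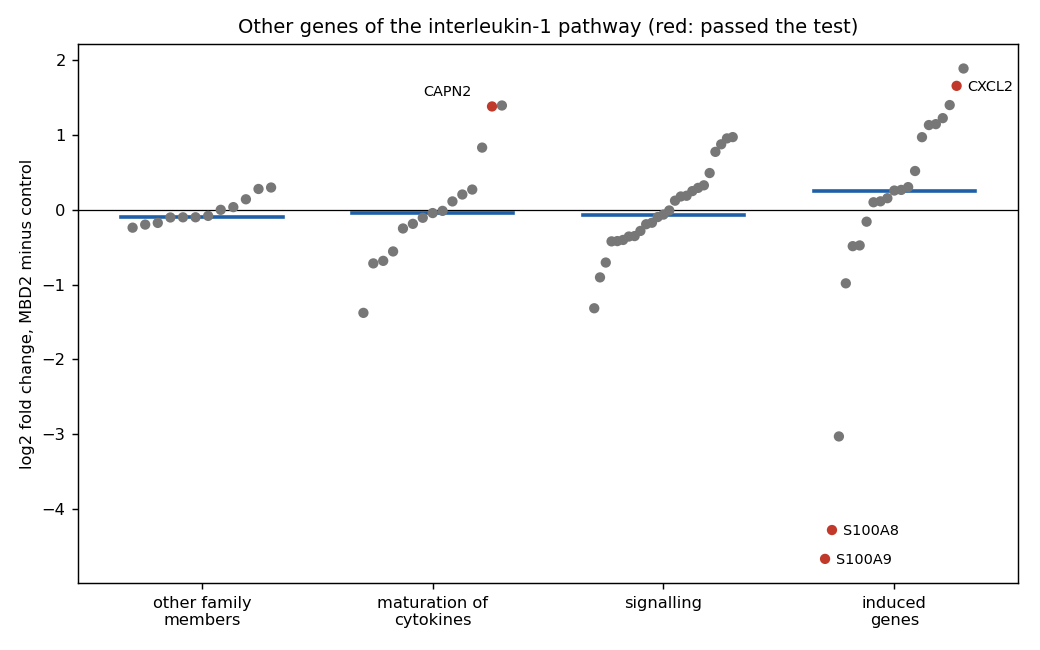
Log2 fold change (MBD2 minus control) of the brightest probe set of each gene in the 4 pathway lists, with genes that passed the test in red and the median of each list as a blue line. CAPN2 and CXCL2 passed above 0, S100A8 and S100A9 passed below it, and the medians of the lists lay between -0.09 and 0.26.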

How the data were processed

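Total RNA of MCF-10A cells was hybridized to Affymetrix Human Genome U133 Plus 2.0 arrays, 3 control and 3 MBD2. The deposited log2 values, 1 for each probe set on each array, come from RMA normalization by the authors (the submitters' processing notes name RMA and affy without versions) and have a median of 5.24 on every array. RMA gives the arrays nearly 1 distribution, so a change of most genes in the same direction would not be seen.

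Gene symbols came from the platform's annotation table. Left out were array controls (62) and the probe sets for which it gives several symbols (1801) or no symbol (11721). All 41091 others were compared with limma 3.58.1 (R 4.3.3) by lmFit on group alone and eBayes, with Benjamini-Hochberg adjustment over all of them and no filter on dim probe sets, and the members were read from that fit. A log2 fold change, or log2 difference, is the MBD2 mean minus the control mean, and genes were called at an adjusted p under 0.05 and at least 1.5-fold. The fit was tested on simulated data with independent noise on each array, a setting without near-identical arrays such as C1 and C2. The members, gene lists and tests were chosen with earlier results of these data known. Named by rule were all members, MBD2, up to 5 called genes of each list and the 3 genes most like each called member. For pathway genes the probe set of highest mean was read. In the lists IRAK4, CSF2, SAA1, SAA2, BIRC3, CD68, FCGR3A, KRT17 and TP63 had no probe set with a single symbol and were not analysed here. IL18 had no promoter window in the table used. Alternatives covered the choice of probe sets, scaling, variance model, fold threshold, replicate block and arrays left out. There are no counts behind array values, so precision is limited by the number of arrays.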

Additional observations from a re-analysis of the deposited data

How the results depend on the processing

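The 2 member probe sets called lower became 3 with only probe sets of a mean of at least 5 and 10 with centring on housekeeping genes, which called 41.9% of all probe sets lower, and 5 with C3 and M1 both left out, which called 9.96% lower and 15.5% higher. With 1 value per gene 1 of 10 genes was called lower, by brightest probe set or by mean, and 1 higher with the mean. At 2-fold 1 probe set was lower. The count was 0 when probe sets whose names end in a mark of shared sequence were left out (which removes both called probe sets of IL1RN), with the methods' unpaired test, with near-identical arrays averaged (C1 with C2, M2 with M3) and with M1 alone against the controls, where the lone array is assumed to vary like them. With arrays averaged limma called 0 of all probe sets and had 2747 at an unadjusted p under 0.05, and with M1 alone 0 and 5291. Member probe sets called higher were 3 with C3 and M1 both out. With 1 array left out, 0 to 3 were lower and 0 to 3 higher, the 3 higher only without M1, where 4.68% of all were lower and 8.8% higher. The 0 lower came without C1, C2, M2 or M3.

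Of the 73 other pathway genes 2 were lower and 2 higher. CSF3 was the added gene where 3 were higher, with brightest probe sets, a mean of at least 5, quantile normalization or centring. Centring gave 29 lower, both arrays out 9 lower and 16 higher, leaving out probe sets marked as shared 1 lower and 1 higher, the mean of probe sets 1 higher, and the methods' unpaired test 0 lower and 1 higher. With arrays averaged, or M1 alone, it was 0 and 0, and with 1 array left out 0 to 4 lower (0 without C1, C2, M2 or M3, 4 without M1) and 0 to 10 higher (0 without C1, C2 or M3, 10 without M1). Of all probe sets, the fit with both arrays out called 9.96% lower and 15.5% higher, and the fit without M1 called 4.68% lower and 8.8% higher. Centring called 41.9% lower. Centring used 17 housekeeping genes, moved the median of all probe sets from -0.0047 to -0.59, and made 97.6% of all calls lower, against 52.1%. The cause was not tested.

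With the replicate block 0 member probe sets and 0 pathway genes passed (IL1RN 212657_s_at adjusted p = 0.0609). The deviations of same-numbered arrays correlated at 0.21, -0.33 and 0.28, and those of arrays with different numbers at -0.33 to 0.35. Deviations within a group depend on each other, so these values cannot decide whether same-numbered arrays were paired.

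Directions turned only for members that had not passed. With centring IL33 was at -0.19, IL1R1 at -0.11, IL1R2 at -0.12 and IL1RL1 at -0.57. IL1R1 was at -1.07 with C3 and M1 out. IL1RL1 was at -0.010 with the mean of probe sets, -0.018 with quantile normalization, -0.0072 with arrays averaged and -0.10 with M1 alone. With 1 array left out IL1R1 ran from -0.33 to 0.90 and IL1RL1 from -0.052 to 0.068. With centring IL1A was at 0.65 and IL1B at 0.45.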
